A study of Apis mellifera with 27 samples.

Results

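H3K27ac in drone brains of the honey bee (Apis mellifera) was set against H3K27ac in worker brains, using 4 of the 27 samples of a series that profiled 4 histone marks in queens, workers and drones by chromatin immunoprecipitation and sequencing (ChIP-seq). The tissue was the brain of newly emerged adults, freed of the optic lobes, and each library was made from a pool of dissected brains. The drone libraries (Drone H3K27ac replicates 1 and 2) came from males, which are haploid, and the worker libraries (Worker H3K27ac replicates 1 and 2) from diploid females, from which the hypopharyngeal glands were also removed. The queen libraries (Queen H3K27ac replicates 1 and 2), diploid females reared from grafted larvae, entered only as a further readout. All bees were offspring of a single queen, so sex, ploidy, caste and the extra dissection step move together between both pairs of libraries and cannot be told apart. In pooled tissue, fewer cells of a type and less signal per cell cannot be told apart either.

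The members were the peaks of the 4 deposited H3K27ac lists, 92501 in all. Peaks that shared at least 1 bp were merged into 30612 regions, and each region was classed by the libraries that held a peak in it. A drone-only region had a peak in both drone libraries and in neither worker library, and a worker-only region the reverse. Regions held by exactly 1 drone and 1 worker library made up the mixed pairs, which served as background for calls that change between libraries irrespective of caste.

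H3K27ac is the acetylation of lysine 27 of histone H3, written by acetyltransferases of the CBP/p300 family and found at active promoters and enhancers. H3K4me3 is typical of active promoters, H3K4me1 of enhancers, and H3K27me3 is laid down by the Polycomb machinery at repressed genes. The same lysine cannot carry acetylation and trimethylation at once on a single histone tail. In the insect brain these marks lie over genes for neurotransmitter receptors, ion channels and transcription factors, among them the ecdysone and juvenile hormone response genes that govern metamorphosis and, in social insects, caste-related physiology.

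The numbers of peaks overlapped between the castes. The drone libraries held 23167 and 21407 peaks, against 21671 and 26256 in the worker libraries, and covered 13.4 and 12.6 Mb, against 15.0 and 14 Mb. The tags behind the calls, estimated indirectly from the deposited fold and p-values, came to 10.8 and 8.76 M in the drone libraries, against 21.1 and 20.5 M in the worker libraries, without overlap. This estimate is not a read total. The mapped read totals that the study lists for these libraries do overlap between drones and workers, so the estimate does not show that the drone libraries were sequenced less deeply. The median summit fold was 3.94 and 4.04 in drones, against 3.03 and 3.21 in workers, again without overlap. With 2 libraries a caste, the exact two-sided permutation test cannot go below p = 0.333, which is what the estimated tags, fold and covered length gave (exact permutation p = 0.667 for the number of peaks). The alternatives called scaled depth and tag-scaled pileup rest on the estimated tags.

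Regions that followed caste far outnumbered regions that cut across it. Of the 30612 regions, 13714 (44.8%) had a peak in all 4 libraries. A further 2008 were drone-only (6.56% of all regions) and 3582 were worker-only (11.7%), together 5590 or 18.3%. The mixed split that set drone 1 and worker 1 against drone 2 and worker 2 gave 525 regions (1.72%), and the split that set drone 1 and worker 2 against drone 2 and worker 1 gave 565 (1.85%). The caste split was thus 10.6 and 9.89 times as large as the mixed splits. The labels list 1 input for each caste, so both libraries of a caste may share a control. Any effect of a shared control would follow caste, and the mixed splits cannot tell it apart from caste. All 4 mixed pairs, at 141 to 424 regions, were smaller than either caste class.

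**Figure D1:**
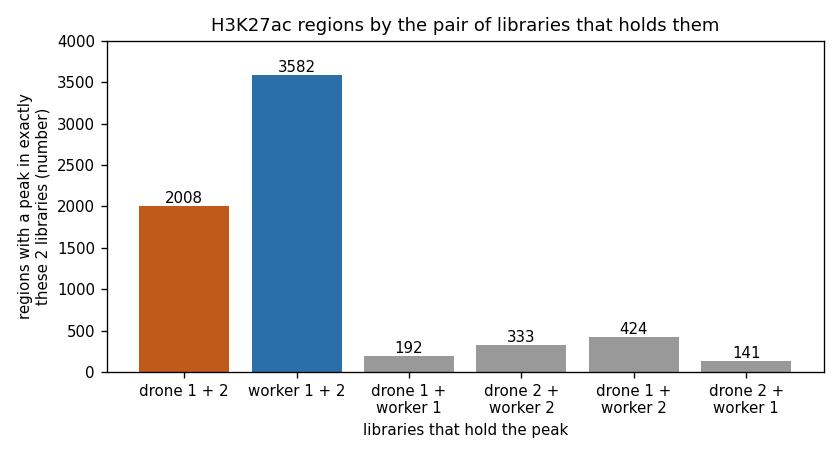
Number of H3K27ac regions (y axis) with a peak in exactly the pair of libraries named on the x axis. The drone pair (2008 regions) and the worker pair (3582) stand above the 4 mixed pairs, which hold 141 to 424 regions each.

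Worker-only regions were 1.78 times as many as drone-only regions, but this order depended on how peaks were selected. With estimated depth scaled to the lowest library the numbers were 2513 drone-only and 2760 worker-only, and with the same number of peaks in each list 2218 and 2682. With only peaks of at least 3-fold enrichment they were 2865 drone-only and 1156 worker-only, which turned the order. The excess of the caste split over the mean of the mixed splits was kept at 8.49 to 11.1 times in these and the other alternatives that keep all 4 libraries. Leaving out a library loosens the definition for its caste by construction. Without drone replicate 1 or 2 there were 3225 or 4095 drone-only regions, and without worker replicate 1 there were 6614 worker-only regions.

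Caste-specific regions were weaker and narrower than those of all 4 libraries, in part by construction. A joined region widens with the number of libraries in it, and a region missed in 2 libraries tends to be weak. Drone-only regions had a median width of 372 bp and worker-only regions of 364 bp, against 634 bp for regions with a peak in all 4 libraries and 245 to 354.5 bp for the mixed pairs. Within single libraries, peaks covered a median of 332.5 and 293 bp of drone-only and 330 and 300 bp of worker-only regions. At regions of all 4 libraries they covered 513 and 513 bp in drones, against 569 and 512 bp in workers. Median summit fold at drone-only regions was 2.99 and 2.76 in the drone libraries, and at worker-only regions 2.36 and 2.57 in the worker libraries. Regions of all 4 libraries had median folds of 5.08 and 4.85 in drones, against 3.75 and 4.14 in workers. Even so most calls were well inside the threshold of the lists. A −log10 q of at least 5 was reached by 90.5% and 75.5% of drone-only regions in the drone libraries, and by 83.3% and 85.8% of worker-only regions in the worker libraries.

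Both classes lay mainly inside genes, as did all regions, and worker-only regions were less often at gene ends. Of the 2006 drone-only regions on the 16 assembled chromosomes, 110 had their midpoint within 200 bp of either end of an annotated gene (5.48%, 95% exact binomial interval 4.53 to 6.57), against 86 of 3578 worker-only regions (2.40%, 1.93 to 2.96). These intervals cover counting error only, and neighbouring regions are not independent. Over all regions the share was 5.84%, near that of drone-only regions. It was 7.69% in regions of all 4 libraries and 5.19% to 11.7% in the single mixed pairs. The remaining regions fell within gene bodies (80.8% of drone-only, 85.9% of worker-only and 83.2% of all regions) or between genes (13.7%, 11.7% and 10.9%). The median distance to the nearest gene end was 4699 bp for drone-only regions and 8115 bp for worker-only regions, against 4078 bp for all regions and 2732 bp for regions of all 4 libraries. Gene ends here are the outer limits of the RefSeq gene spans, without strand, so start and stop were not distinguished. Every chromosome carried both classes. Drone-only regions made up between 5.31% (chromosome 4) and 8.75% (chromosome 14) of a chromosome's regions, and worker-only regions between 8.25% (chromosome 11) and 16.2% (chromosome 12).

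The caste classes gathered in clusters. A cluster was a run of at least 3 regions of a class with gaps of at most 10 kb. Drone-only regions formed 153 clusters holding 631 regions (31.5%), and worker-only regions formed 322 clusters holding 1463 regions (40.9%). Of the mixed pairs, drone 1 with worker 2 formed 2 clusters and the others none, but these classes are also smaller and therefore more widely spaced, with median gaps of 225 to 704 kb, against 28.9 kb for drone-only and 14.7 kb for worker-only regions. Clusters thus cannot be compared between classes apart from the number of regions.

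The drone-only cluster with most regions held 14 within 53.2 kb on chromosome 6 (positions 15246787 to 15299985 of Amel_HAv3.1, the build used by the authors), a stretch with 3 LOC genes and a tRNA gene (TRNAL-UAA). Its summit folds ran from 2.09 through a median of 3.89 to 7.38 in drone replicate 1, and from 2.03 through 3.41 to 6.32 in drone replicate 2. A single worker-only region lay among them, and 10 of the 14 had a peak in each queen library. The second, with 13 regions in 28.0 kb inside LOC725754 (chromosome 14, 8539371 to 8567353), held no worker-only region. LOC725754 had 38 and 35 peaks over 41.7 and 34.5 kb in drones, against 10 and 17 peaks over 7.62 and 7.47 kb in workers. The next, of 11 regions, covered LOC411163 and 2 neighbours on chromosome 6 (9677603 to 9707876), and clusters of 10 and 9 regions lay within LOC408872 and LOC408616.

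The worker-only cluster with most regions held 19 within 59.1 kb at LOC408804 on chromosome 4 (8920229 to 8979320), with folds from 1.88 through a median of 3.64 to 8.21 in worker replicate 1 and from 2.12 through 4.34 to 9.23 in worker replicate 2. LOC408804 itself had 4 and 5 peaks in drones, against 23 and 27 in workers. The other leading clusters held 15 regions at LOC725329 (chromosome 7), 14 at LOC408576 (chromosome 1) and 13 at LOC408547 and 2 neighbours (chromosome 15). A cluster of 14 regions in 37.9 kb (chromosome 15, 7337265 to 7375183) lay over Dop1, a dopamine receptor gene, and 2 neighbours. None of these 5 clusters contained a drone-only region.

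**Figure D2:**
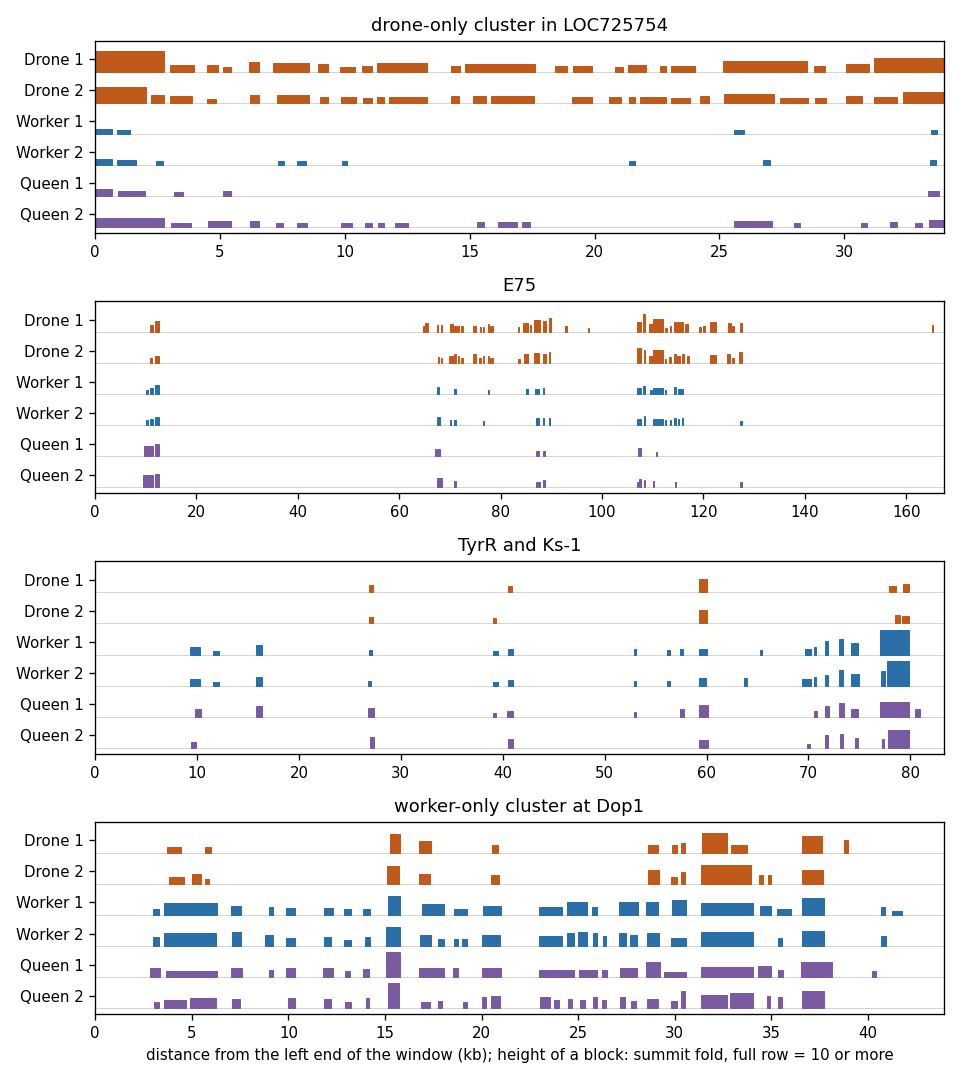
H3K27ac peaks of the drone, worker and queen libraries (rows) at 4 loci, with 3 kb on either side. The x axis is the distance from the left end of the window in kb, and block height is summit fold (a full row is 10 or more). At LOC725754 and E75 the drone rows hold peaks where worker rows are empty, and at TyrR with Ks-1 and at Dop1 the worker rows do.

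Genes of both classes were long, and most also carried regions with a peak in all 4 libraries (754 or 70.5% of genes with drone-only and 1002 or 74.6% of genes with worker-only regions). At least 1 drone-only region overlapped 1069 of 12255 genes (8.72%) and at least 1 worker-only region 1343 genes (11%), against 841 genes (6.86%) for the mixed pairs. Among the 9870 protein-coding genes the shares were 9.33% and 11.7%. At least 3 regions fell in 187 genes (1.53%) for drone-only, 377 (3.08%) for worker-only and 59 (0.481%) for mixed pairs. The median length was 22.0 kb for genes with drone-only regions, 32.7 kb for genes with worker-only regions, 23.3 kb for genes with mixed regions and 3.62 kb for all genes. Both classes met in 339 genes, which is 31.7% of the genes with drone-only and 25.2% of those with worker-only regions. Of 72 genes with at least 5 drone-only regions, 26 had no worker-only region, and of 186 genes with at least 5 worker-only regions, 120 had no drone-only region.

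The genes with most drone-only regions were LOC408872 with 19 of its 38 regions, and LOC725754, LOC408616 and LOC408862 with 16 of 38, 55 and 93. E74 had 12 of 66, LOC411163 11 of 19 and E75 11 of 39. LOC551071, LOC552257 and LOC410758 followed with 9 of 62, 21 and 37. Over all regions 6.56% were drone-only, and a ranking by number favours genes with many regions. LOC408872 had 38 and 36 peaks in drones, against 10 and 14 in workers, and no worker-only region. LOC552257 had 20 and 14 peaks in drones, against 2 and 4 in workers. Each of these 10 genes kept more drone-only than worker-only regions in every alternative, except E74, where the numbers were equal at 6 each when only peaks with a −log10 q of at least 5 were used.

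The genes with most worker-only regions were LOC725329 with 30 of its 198 regions, LOC408372 with 29 of 99, and Mad with 27 of 100. Next came LOC411617 with 25 of 52, LOC413503 with 24 of 65, and LOC724172 with 23 of 61. LOC411288 had 22 of 59, LOC411113 21 of 65, LOC724344 20 of 130 and LOC724468 20 of 72. Over all regions 11.7% were worker-only, and a ranking by number favours genes with many regions. Mad, the SMAD protein that carries BMP signals from the receptor to the nucleus, spans 409 kb of chromosome 15. It had 56 and 50 peaks over 23.7 and 21.3 kb in drones, against 80 and 96 peaks over 39.7 and 42.4 kb in workers, with no drone-only region and 41 regions common to all 4 libraries. LOC411617 had 8 and 11 peaks in drones, against 39 and 49 in workers. With a minimum fold of 3, 5 of these 10 genes carried more drone-only than worker-only regions, Mad among them (5 drone-only and 3 worker-only). No other alternative turned the order in any of the 10.

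Ecdysone and juvenile hormone genes carried both classes, in a balance that differed between members. Over 10 genes there were 25 drone-only and 20 worker-only regions among 219 (11.4% and 9.13%, where all regions gave 6.56% and 11.7%). Drone-only regions lay in 4 of the genes and worker-only regions in 6. The order turned in 4 alternatives, to 16 drone-only and 20 worker-only when peaks below a −log10 q of 5 were dropped, 28 and 30 when a library had to cover 0.5 of the region, 26 and 35 without drone replicate 1, and 30 and 32 without worker replicate 1. E74 and E75, transcription factor genes induced early in the ecdysone response, held 12 and 11 of the 25 drone-only regions.

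E74 had 57 and 53 peaks over 41.8 and 38.6 kb in drones, against 47 and 51 peaks over 38.3 and 33.8 kb in workers, with 12 drone-only and 5 worker-only regions. E75 had 39 and 32 peaks over 20.1 and 17.2 kb in drones, against 16 and 20 peaks over 9.36 and 9.28 kb in workers, with 11 drone-only regions and 1 worker-only region. The castes did not overlap in either gene in number of peaks or length covered. The queen libraries had 7 and 12 peaks in E75, below both other castes. Among regions with a peak in all 4 libraries, described further on, 11 of 28 in E74 were higher in drones by limma and none was lower.

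The receptor genes and Br-c had more worker-only than drone-only regions. Br-c, the broad complex gene, had 5 worker-only regions and no drone-only region (9 and 6 peaks in drones, against 12 and 17 in workers). Usp, the partner of the ecdysone receptor, had 1 drone-only and 5 worker-only regions, and Ecr, the receptor itself, had 2 worker-only regions beside 39 common to all 4 libraries. Mblk-1, a transcription factor gene known from the large-type Kenyon cells of the bee mushroom body, had 1 drone-only region.

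Kr-h1 encodes a zinc finger transcription factor that responds to juvenile hormone, and it held the worker-only region with the highest q-value rank. This region (chromosome 6, 16510130 to 16510772, 643 bp) covered an end of the gene. Its summit folds were 6.60 and 6.59 in the worker libraries, with −log10 q of 123 and 102, and neither drone library had a peak in it. Both queen libraries did. An H3K4me3 peak lay over it in neither drone library and in both worker libraries, and an H3K4me1 peak in 1 drone library and in no worker library. Kr-h1 as a whole had 2 and 3 peaks in drones, against 5 and 6 in workers and 4 and 4 in queens, and at least 2 worker-only regions were found in it in every alternative.

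Biogenic amine genes, which serve arousal, reward and motor tone in the insect brain, had nearly all their caste-specific regions in workers. Their 11 genes held 1 drone-only and 40 worker-only regions among 82 (1.22% and 48.8%). Worker-only regions fell in 5 of the 11 genes. With a minimum fold of 3 the numbers were 1 and 12, and with estimated depth scaled to the lowest library 2 and 35.

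Of the 40 worker-only regions, 13 lay in Dop1, 10 in DopR2 and 5 in Dop3, all dopamine receptor genes. Dop1 had 15 and 15 peaks over 7.63 and 8.94 kb in drones, against 26 and 29 peaks over 20.3 and 17.7 kb in workers. DopR2 had 2 peaks and none in drones, against 14 and 15 in workers and 4 and 6 in queens, with no region common to all 4 libraries. No worker-only region was left in DopR2 with a minimum fold of 3. Dop3 had no peak in either drone library, against 5 and 7 in workers. In all 3 genes both worker libraries exceeded both drone libraries.

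TyrR, a tyramine receptor gene, had 5 and 5 peaks over 2.90 and 2.53 kb in drones, against 17 and 17 peaks over 10.5 and 9.76 kb in workers, with 10 worker-only regions. The long noncoding RNA gene Ks-1, first described in Kenyon cells, lies wholly within the TyrR span, and 5 of the 10 regions overlap both, so they cannot be assigned to either gene. The serotonin receptor gene 5-HT1 had 2 worker-only regions, with no peak and 1 peak in drones, against 4 and 6 in workers. TyHyd, the tyrosine hydroxylase gene of dopamine synthesis, carried the sole drone-only region of the list, with 2 peaks and 1 peak in drones, against 1 and none in workers.

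Receptors for acetylcholine, GABA and glutamate followed with 6 drone-only and 41 worker-only regions among 150 (4% and 27.3%). With a minimum fold of 3 the numbers were 10 drone-only and 7 worker-only, which turned the order. Most fell in nicotinic acetylcholine receptor subunit genes, which encode the main fast excitatory receptors of the insect brain. nAChRa4 had 1 and 1 peak in drones, against 13 and 17 in workers, with 10 worker-only regions. nAChRa6 had no peak in drones, against 6 and 6 in workers, all of them within worker-only regions. nAChRa7 had 4 and 2 peaks in drones, against 7 and 10 in workers, with 6 worker-only regions. The castes did not overlap in these 3 genes. nAChRa3 differed, with 44 and 38 peaks in drones, against 40 and 47 in workers, and with 4 drone-only and 7 worker-only regions.

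Synaptic adhesion genes held 2 drone-only regions, both in Dscam, and 27 worker-only regions among 81 (2.47% and 33.3%), and 4 drone-only and 3 worker-only with a minimum fold of 3. Nrx-1, the neurexin gene, had no peak in either drone library across its 338 kb, against 18 and 24 in workers and 10 and 11 in queens, with 13 worker-only regions. The neuroligin gene NLG-5 had 1 and 1 peak in drones, against 6 and 7 in workers. The receptor of the neuropeptide SIFamide, SIFR, carried 10 of the 12 worker-only regions of the neuropeptide list, with 8 and 6 peaks in drones, against 15 and 17 in workers. That list had no drone-only region, and SIFR kept no worker-only region with a minimum fold of 3.

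Sodium and calcium channel genes had 1 drone-only region, in LOC408841, and 29 worker-only regions among 123 (0.813% and 23.6%), and 3 and 10 with a minimum fold of 3. Cac, the presynaptic voltage-gated calcium channel of flies, had 34 and 33 peaks over 17.5 and 17.4 kb in drones, against 46 and 54 peaks over 29.4 and 27.4 kb in workers, with 9 worker-only regions. LOC100578899, which RefSeq lists with the synonym Cav1a, had 10 and 8 peaks in drones, against 18 and 19 in workers, also with 9 worker-only regions. Para, the voltage-gated sodium channel, had 14 and 14 peaks in drones, against 16 and 21 in workers, with 4 worker-only regions.

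**Figure D3:**
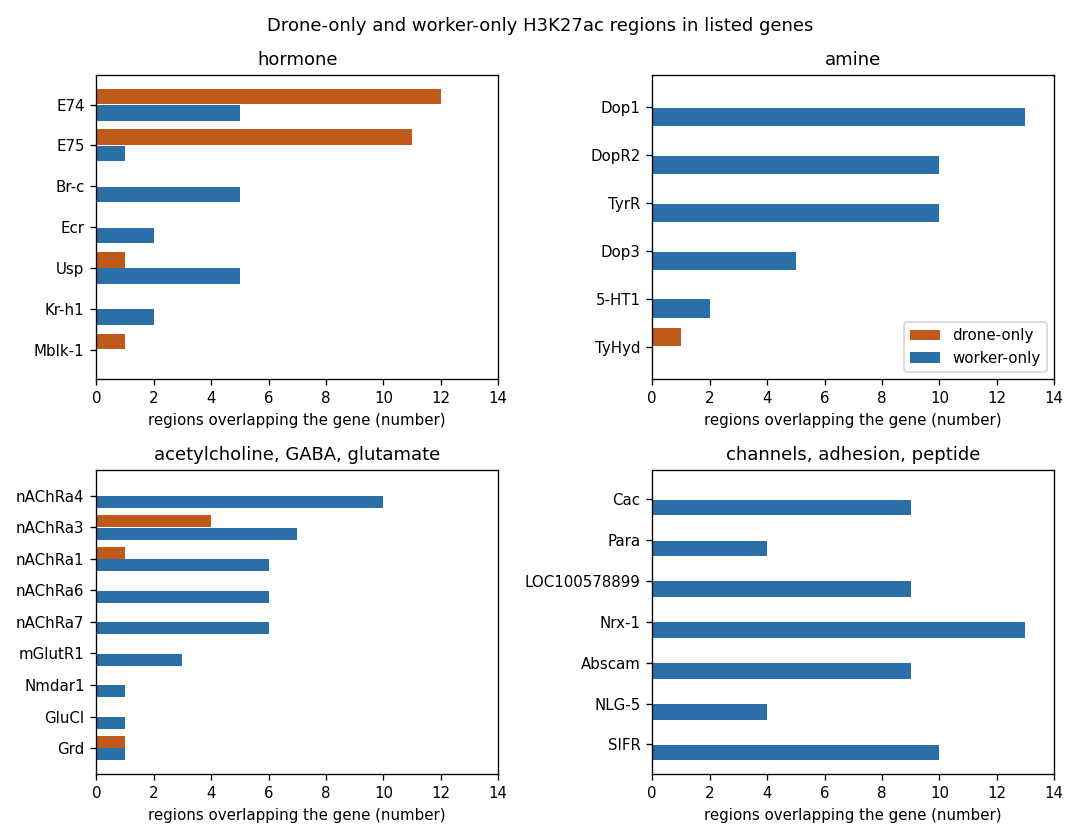
Number of drone-only and worker-only H3K27ac regions (x axis) overlapping genes (rows) chosen from the hormone, amine, transmitter receptor, channel, adhesion and peptide lists. Among the genes drawn, drone-only bars are longer for E74, E75, Mblk-1 and TyHyd, and worker-only bars reach 13 at Dop1 and Nrx-1.

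Other lists held few or no caste-specific regions. The Hox list (2 genes) held 1 drone-only region, in Ubx, and the 7 troponin genes, added after values were seen, held 1 of each class. The 5 sex determination genes had neither class, and the same held for the circadian clock (2 genes) and photoreceptor lists (4 genes). Chemoreceptor and odorant binding protein genes had 1 drone-only and 2 worker-only regions over 54 genes, of which 47 held no region at all. For, the cGMP-dependent protein kinase gene tied to foraging, had 3 drone-only regions and 1 worker-only region (13 and 13 peaks in drones, against 8 and 11 in workers). Cuticle protein genes, a list added after values were seen, had 4 drone-only regions in 3 of 27 genes and no worker-only region. CPR5 held 2 of these, with 2 and 2 peaks in drones and none in workers or queens.

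Markers of the hypopharyngeal gland and the fat body were nearly empty, whereas some of the troponin genes of muscle were not. The 7 hypopharyngeal gland genes held 0 and 0 peaks in drones, against 2 and 1 in workers, all in Hbg3, with 1 worker-only region. The 5 fat body genes held 0 and 1 peak in drones, against 0 and 1 in workers. The 7 troponin genes held 7 and 7 peaks in drones, against 7 and 9 in workers. Of these 7 genes, 4 held no region. They had 9 regions in all, and the 5 common to all 4 libraries all lay in TpnCI. The 3 neuron marker genes had 31 and 25 peaks in drones, against 31 and 44 in workers. They carried 0 drone-only and 10 worker-only regions among 35 (0% and 28.6%, where all regions gave 6.56% and 11.7%). Para, which held 4 of the 10, is also in the sodium and calcium channel list. Markers of glia could not be matched to gene symbols and were not analysed here, so the part of cell composition in the receptor and channel differences was not tested.

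Only 624 of the 12255 genes carry a symbol other than a LOC number or a tRNA name, and of these 37 (5.93%) had a drone-only and 64 (10.3%) a worker-only region. Further genes with at least 5 regions of a class were named after their values were seen. Camkii, the calcium/calmodulin-dependent kinase II gene, had 40 and 33 peaks over 16.5 and 15.1 kb in drones, against 55 and 72 peaks over 32.8 and 30.6 kb in workers, with 18 worker-only regions. The chloride channel gene pHCl had 14 worker-only regions (20 and 18 peaks in drones, against 32 and 36 in workers), and the acetylcholinesterase gene AChE-2 had 11 (18 and 15 peaks in drones, against 30 and 40 in workers). The guanylyl cyclase subunit gene sGC-alpha1 had 5. On the drone side Nedd9 had 5 drone-only regions and 3 worker-only regions.

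The 10 strongest drone-only regions were ranked by the lower of both −log10 q values. The first lay in LOC410621 (chromosome 15, 5253546 to 5254373), with folds of 5.32 and 5.39 and −log10 q of 62.0 and 52.5 in drones and no peak in workers. The next was in LOC102656753 within the large chromosome 6 cluster, with folds of 7.38 and 6.32. The highest folds of the 10, 9.71 and 8.45, were at a 300 bp region of LOC410896 (chromosome 2, 5559270 to 5559569). Of the 10 regions, 4 had a peak in both queen libraries.

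The 10 strongest worker-only regions had a peak in both queen libraries in every case. After Kr-h1 they lay in LOC726262, which RefSeq lists with the synonym ac8 (chromosome 10, 4814279 to 4814618, folds 7.03 and 8.43), LOC408809 (6.97 and 8.00) and near LOC100578168 (8.21 and 9.23). The others were in LOC411738, LOC411113, LOC414002, LOC408804, LOC413817 and LOC413399.

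The queen libraries, which the classes did not use, had a peak in 41.3% and 44.5% of drone-only regions and in 55.8% and 54.5% of worker-only regions. Neither queen library had one in 45.5% of drone-only and 31.7% of worker-only regions. Over all mixed pairs, the background, the queen shares were 58.5% and 47.8%, and neither queen library had a peak in 29.8%. The worker-only share was thus below this background in queen replicate 1 and above it in queen replicate 2. The drone-only shares were below it in both. Single mixed pairs differed, with shares of 43.6% to 77.2% in queen replicate 1 and of 45.6% to 49.5% in queen replicate 2. Regions of all 4 libraries had a queen peak in 94.7% and 95.5% of cases. At E75, DopR2 and Nrx-1 the queen libraries had fewer peaks than the caste with most, and at Dop1 their numbers overlapped those of the worker libraries (24 and 31 in queens, against 26 and 29 in workers).

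At the same regions the direction of the drone and worker difference followed the class for H3K4me1 and H3K4me3. H3K4me1 peaks overlapped 33.6% and 41.0% of drone-only regions in the drone libraries, against 5.48% and 7.88% in the worker libraries (37.3% ± 5.18 against 6.68% ± 1.69, SD, n = 2 each). At worker-only regions the shares were 17.2% and 16.5% in drones, against 26.4% and 29.0% in workers, a difference of −10.9 percentage points. The direction thus followed the class, but the mixed pairs were also higher in drones (22.0% ± 2.27 against 14.2% ± 2.27). The drone H3K4me1 lists were also longer (18985 and 21623 peaks, against 12475 and 14070 in workers), and regions of all 4 libraries had an H3K4me1 peak in 40.7% ± 3.13 in drones, against 22.3% ± 3.40 in workers.

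H3K4me3 peaks overlapped 5.36% ± 2.78 of drone-only regions in drones, against 2.39% ± 0.916 in workers. At worker-only regions they overlapped 1.59% ± 1.03 in drones, against 12.1% ± 3.62 in workers. At the mixed pairs the shares were 4.04% ± 1.95 in drones and 6.80% ± 2.34 in workers. At regions of all 4 libraries the shares were 24.3% ± 4.46 and 31.1% ± 2.79, and the drone H3K4me3 lists were shorter (5412 and 3866 peaks, against 8869 and 6706 in workers). H3K27me3 peaks overlapped 6.41% ± 0.176 of drone-only regions in drones, against 9% ± 1.02 in workers, and 6.78% ± 0.178 of worker-only regions in drones, against 6.25% ± 0.336 in workers. The last of these differences, 0.53 percentage points, turned to −1.04 percentage points with a minimum fold of 3. At the mixed pairs the H3K27me3 shares were 2.66% ± 0.260 in drones and 2.75% ± 0.779 in workers. Both classes carried more H3K27me3 than regions of all 4 libraries, where the shares were 1.95% ± 0.108 in drones and 1.65% ± 0.201 in workers.

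At the mixed pairs the drone and worker libraries overlapped for H3K4me3 (exact permutation p = 0.667) and for H3K27me3. In every other comparison of marks given here they did not overlap. Such a separation gives an exact permutation p of 0.333, the smallest that 2 libraries against 2 allow. Chromatin extracts were split into aliquots before precipitation, so libraries of different marks may share their brains.

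**Figure D4:**
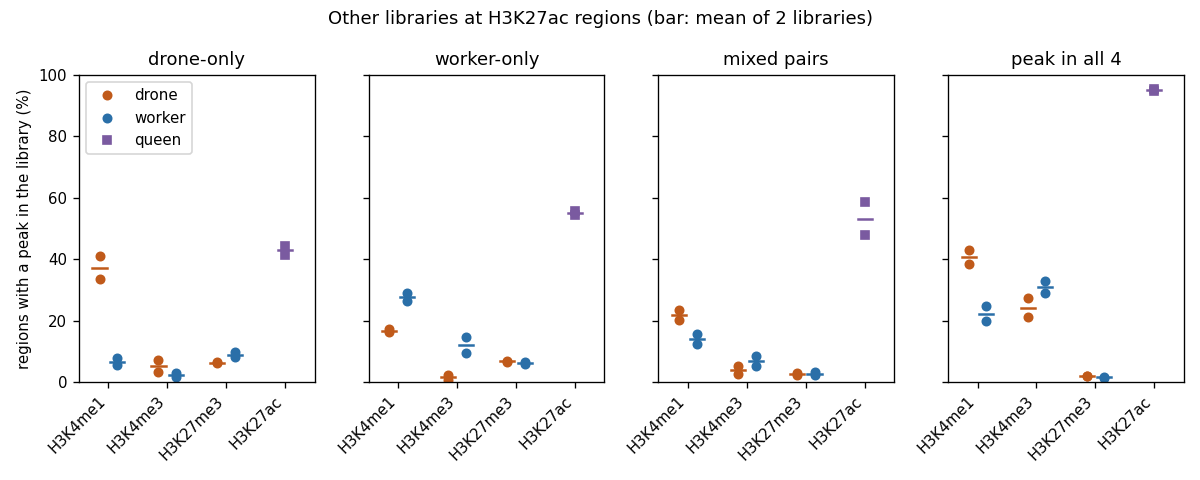
Share of regions (y axis, %) with a peak in each library of H3K4me1, H3K4me3 and H3K27me3 from drones and workers, and of H3K27ac from queens (x axis). Points are libraries and bars their means. At drone-only regions H3K4me1 is at 37.3% in drones, against 6.68% in workers, and at worker-only regions at 16.8%, against 27.7%.

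Differences in height were also present where all 4 libraries had a peak. The summit fold of the 13701 such regions on the assembled chromosomes was compared on the log2 scale with limma, after each library was centred on its median. At an adjusted p below 0.05, 1884 regions were higher in drones (13.8%) and 1459 were lower (10.6%). A log2 difference of at least 1 was reached by 274 and 215 of these. At an unadjusted p below 0.05 there were 2931 and 2447.

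The balance of directions depended on the scale together with centring. Tag-scaled pileup is the summit pileup recovered from fold and p, divided by the estimated tags of the library. Unlike the fold, it was not centred on each library's median, so scale and centring changed together. Before centring, the median log2 fold was 2.34 and 2.28 in drones, against 1.91 and 2.05 in workers. With tag-scaled pileup in place of the centred fold, the median difference over all regions moved from 0.02 to 0.25 on the log2 scale. There 4142 regions were higher and 537 lower in drones, so that 88.5% of calls were higher in place of 56.4%. Of the 1884 regions called higher, 89.2% passed on this scale too, and of the 1459 called lower, 28.4%. Without worker replicate 1 the numbers were 861 and 649, and without worker replicate 2 they were 806 and 630. A region had to be called in every library to enter this comparison.

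The region with the largest difference lay within the overlapping TyrR and Ks-1 genes (chromosome 1, 15845940 to 15848746, 2807 bp). Its summit fold was 3.38 and 3.22 in drones, against 11.7 and 11.5 in workers, a centred log2 difference of −2.14 ± 0.16 (SE, limma adjusted p = 0.0023). The difference was −0.99 in tag-scaled pileup and ran from −2.23 to −0.99 over the 8 alternatives that kept this region set. The 10 worker-only regions of TyrR lie in the same gene.

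LOC413171 and LOC100577638 followed, with log2 differences of −1.99 and −1.97. LOC413171 had folds of 2.24 and 1.96 in drones, against 5.83 and 7.49 in workers, and LOC100577638 had 2.63 and 3 in drones, against 8.21 and 9.36 in workers. The other regions among the 10 lowest in drones were in LOC552020, LOC100577571, LOC113219182, LOC724787, LOC724652, LOC100578705 and LOC100576683, with log2 differences from −1.87 to −1.64. In tag-scaled pileup, which was not centred, LOC413171 (−0.38, limma adjusted p = 0.116) and LOC724652 (−0.38, adjusted p = 0.108) did not pass. On the same scale LOC100578705 turned to 0.43 (limma adjusted p = 0.053).

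The 10 regions highest in drones differed by 1.55 to 1.88 on the log2 scale. The first lay in LOC107964629 (chromosome 6, 16753379 to 16753763), with folds of 15.8 and 13.8 in drones, against 3.05 and 3.30 in workers (log2 difference 1.88 ± 0.15, SE, limma adjusted p = 0.0025). A region in LOC408959 and LOC725021 had folds of 12.6 and 12.6 in drones, against 3.08 and 2.63 in workers, and a 2580 bp region in LOC725189 had 9.91 and 8.57 in drones, against 2.22 and 2.16 in workers. The others were in LOC414002, LOC724319, LOC551510, LOC726199, LOC100576251, LOC100577632 and LOC724535. Over the 8 alternatives the log2 differences of these 10 ran from 1.23 to 2.21. The 10 were picked for the largest differences, so this range does not carry over to the other calls.

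**Figure D5:**
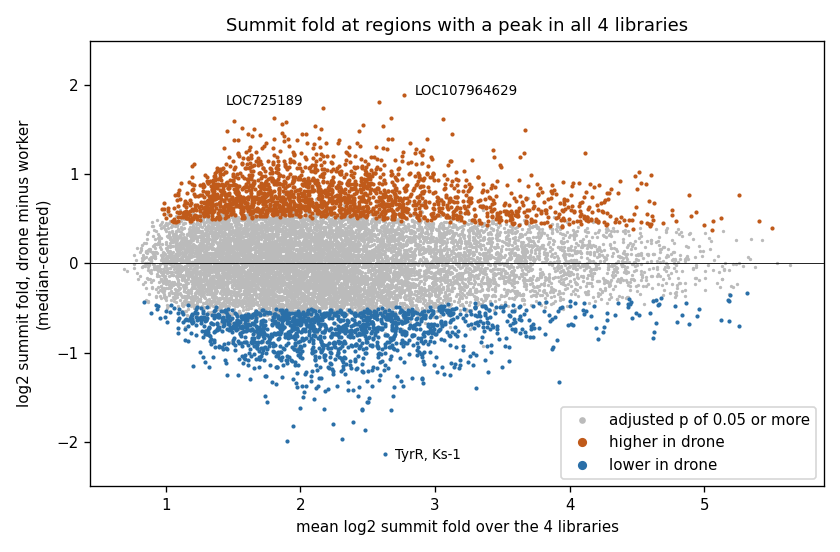
Difference in median-centred log2 summit fold, drone minus worker (y axis), against mean log2 summit fold of the 4 libraries (x axis) at 13701 regions with a peak in all 4 libraries. The 1884 regions called higher and the 1459 called lower in drones are coloured, and the lowest point is the TyrR and Ks-1 region at −2.14.

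The gene lists can be read on these regions as well, beside 13.8% higher, 10.6% lower and a median of 0.02 over all of them. Of 56 regions in sodium and calcium channel genes, 2 were higher and 23 lower in drones (3.57% and 41.1%), with a median of −0.45. On the pileup scale 3 were higher and 14 lower, with a median of −0.31 beside 0.25 over all regions. Cac contributed 14 of the 23, out of 28 regions tested. Of 17 regions in the 3 neuron marker genes, 2 were higher and 3 lower in drones, with a median of −0.12. On the pileup scale 2 were higher and 2 lower. Both regions of Syt1, the synaptotagmin gene, were among those lower by fold. Both of Nmdar1, a glutamate receptor gene, were also lower, in a list with 5 higher and 6 lower regions among 51.

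Of 103 regions in ecdysone and juvenile hormone genes, 28 were higher and 8 lower in drones (27.2% and 7.77%), with a median of 0.20. On the pileup scale 42 were higher and 3 lower (40.8% and 2.91%, beside 30.2% and 3.92% over all regions), with a median of 0.34. E74 contributed 11, Ecr 8 and Mblk-1 5 of the higher regions, and Usp 3 of the lower ones. Ecr, with 2 worker-only regions, thus also had 8 shared regions that were higher in drones. Of 14 regions in biogenic amine genes, 2 were higher and 4 lower, with a median of −0.36, and on the pileup scale 4 were higher and 3 lower, with a median of 0.07. Of 51 regions in receptors for acetylcholine, GABA and glutamate, 5 were higher and 6 lower, with a median of 0.01, and on the pileup scale 18 were higher and 5 lower, with a median of 0.28. Neither list kept its order on both scales, of which only the fold was median-centred. The sole shared region of Tbh, the enzyme of octopamine synthesis, was higher in drones, by 1.16 on the log2 scale.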

How the data were processed

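Peak lists were deposited by the authors, called per library with MACS2 after BWA (version 0.7.17) alignment to Amel_HAv3.1. The deposited columns used were peak positions, the summit fold (a ratio of pileup to local background) and −log10 of the p and q values. The lowest deposited −log10 q was 2.00 in each list. The threshold and control used are not given in the sources used here. The 1 input the labels list for each caste has no list here, and 6 lists of other queen marks were not used. No sequence was used.

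Pileup and background at each summit were recovered from fold and Poisson p, which gave whole pileups (within 0.02) for all but 1 peak, of worker replicate 1. Tags were estimated as the lowest background times the genome size given to MACS2 (2.7e+08 bp), divided by the shortest peak width, taken as the fragment length. Mapped read totals listed by the study were not used. Summits in regions of all 4 libraries were compared with limma 3.58.1 (R 4.3.3, mean trend, Benjamini-Hochberg adjustment, log2 fold, median-centred). Other steps used Python 3.11.15, pandas 2.3.3 and scipy 1.17.1. The code was tested on simulated data. Gene spans and symbols came from RefSeq Amel_HAv3.1, and 41 regions on unplaced scaffolds were left out of position and gene counts. Alternatives were −log10 q of at least 5, fold of at least 3, equal list sizes, scaled depth, a wider joining distance, 0.5 of a region covered, 1000 bp gene ends, other fits, and leaving out each library. Ranking rules took the 10 regions of each class by −log10 q, the 10 genes and 5 clusters of each class by number of regions, and the 10 shared regions in each direction by log2 difference among those past adjusted p of 0.05. Listed genes with a caste-specific region could also be named. Members and lists were chosen with earlier results of these data known. Replicate numbers do not pair libraries, and p-values measure the spread between 2 pools a caste, which may be partly technical.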

Additional observations from a re-analysis of the deposited data

How the results depend on the processing

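The excess of regions that followed caste over the mixed splits held in every alternative that keeps all 4 libraries, whereas counts, widths and overlaps moved. A minimum fold of 3 gave 1156 worker-only regions, 714 genes with such regions, 273 drone-only and 51 worker-only clusters, median widths of 511.5 bp (drone-only) and 324 bp (worker-only), 3.81% of worker-only regions at gene ends and 61.1% of them with a queen peak. With it the drone minus worker differences at worker-only regions were −16.4 percentage points for H3K4me1, −13.8 for H3K4me3 and −1.04 for H3K27me3, and −1.22 for H3K27me3 at drone-only regions. A −log10 q of at least 5 gave a drone-only width of 406 bp. Equal list sizes gave a queen peak in 35.3% of drone-only and 52.4% of worker-only regions, 3.02% of worker-only regions at gene ends and an H3K27me3 difference of 1.01 there. Scaled depth gave 57.8% of worker-only regions with a queen peak and an H3K4me1 difference of −12.3. With at least 0.5 of a region covered, widths were 402.5 bp (drone-only) and 391 bp (worker-only), queen shares 50.1% and 61.8%, and the worker-only differences −8.50 for H3K4me1 and 0.999 for H3K27me3. Gene ends of 1000 bp held 21.9% of drone-only and 12.1% of worker-only regions. Tag-scaled pileup, which was not median-centred, gave 4142 higher and 537 lower shared regions, and 0.43 at LOC100578705. The cause of these shifts was not tested beyond the construction of each alternative.

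Leaving out 1 library gave 2487 to 4095 drone-only and 4363 to 6614 worker-only regions, median widths of 250 to 377 bp and 255 to 373 bp, 209 to 410 and 416 to 707 clusters, and 1280 to 1678 genes with drone-only regions. Queen shares ran from 33.2% to 49.2% of drone-only and from 43.7% to 59.9% of worker-only regions. The H3K4me1 difference ran from 22.6 to 29.0 percentage points at drone-only and from −10.3 to −5.63 at worker-only regions, and the H3K27me3 difference from −2.43 to −1.52 and from −0.16 to 0.81, below 0 without worker replicate 1 (−0.16) and without worker replicate 2 (−0.13). Shared regions higher in drones numbered 806 to 1980, and lower ones 630 to 1682.

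With the replicate number as a replicate block, 2544 shared regions were higher and 2053 lower in drones. Same-numbered libraries deviated with a correlation of 0.057 across 13701 regions in only 2 pairs, so the numbers were not taken to pair the libraries. Scaled depth and tag-scaled pileup rest on indirectly estimated tags, which separate the castes where the mapped read totals listed by the study do not, so both are uncertain. With 2 libraries a caste, no exact test can go below p = 0.333.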
